A study of Mus musculus with 6 samples.

Results

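Arginine is the shared substrate of several enzymes that macrophages are known for. Arginase splits it into urea and ornithine, and nitric oxide synthase turns it into nitric oxide and citrulline, so that the balance of arginase 1 and inducible nitric oxide synthase has long been used to describe how a macrophage is activated. Ornithine is the starting point of the polyamines, which dividing and secreting cells need, and citrulline can be rebuilt into arginine. The 10 genes described here were chosen by name to cover this route: Arg1 and Arg2 (the arginases), Nos2 (inducible nitric oxide synthase), Ass1 and Asl (which rebuild arginine from citrulline), Slc7a1 and Slc7a2 (cationic amino acid transporters that import arginine), and Odc1, Srm and Sms (which make putrescine, spermidine and spermine in turn). Each name matched 1 row of the deposited table, so 10 of its 43432 genes are the subject.

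The cells were macrophages from the mammary glands of female FVB/N mice carrying MMTV-PyMT, an oncogene transgene (polyomavirus middle T) expressed from a promoter active chiefly in mammary epithelium, so that the glands develop tumours. All 6 samples carry the transgene, and no gland without it was among them. Live cells positive for CD45, MHC class II and CD14 were sorted by flow cytometry, 3 samples at 8 weeks of age and 3 at 11 weeks, and the design text sets early against late tumours. Samples carry a number within each age, but no label states that each came from its own mouse. The p-values therefore reflect variation among these samples, some of which may be technical.

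Values are normalized counts: the reads of a gene divided by 1 size factor per library. Whole reads could be recovered from them, 38784434 to 75004880 per library, of which mitochondrial ribosomal RNA took 35.2% to 51.8%. All 11 macrophage markers checked (Csf1r, Emr1, Cd68, Mertk and others) were detected in all 6 libraries. Their summed level was 720054 to 939685 normalized counts at 8 weeks and 746719 to 851304 at 11 weeks, a sum that Lyz2 carries. Csf1r was lower without overlap at 11 weeks, at 54613 to 59567.7 against 64409.9 to 70989.5 at 8 weeks. C1qb and Fcgr1 were higher without overlap, and the other macrophage markers overlapped. Transcripts of other cells were present, and some of their marker sums differed between the ages. The sum of 12 neutrophil markers was 1863.7 to 4508.1 at 8 weeks and 5947.5 to 6699.6 at 11 weeks, with Elane at 0 in all libraries and Ly6g at 0 in 4 of them and at 0.9 in the others. The sum of 12 mammary epithelial markers was 7694.8 to 11246 at 8 weeks and 23817 to 45910 at 11 weeks. Those sums set the ages apart without overlap. Csn3 and Csn2 carry the epithelial sum. Csn3, Csn2, Krt7, Krt19 and Wap were higher without overlap at 11 weeks. Epcam, Cdh1, Krt5, Krt8, Krt14, Krt18 and Lalba overlapped. Endothelial markers summed to 269.8 to 454.4 at 8 weeks and 621 to 1118.4 at 11 weeks. Of these 7 markers 4 had a positive log2 fold change, and the median was 0.10. The number detected was 6, 6 and 5 in replicates 1 to 3 at 8 weeks and 3, 4 and 7 at 11 weeks. Dendritic cell markers summed to 5087.2 to 6750.8 and 3668.3 to 4834.7, lower without overlap. Of these 6 markers 3 had a positive log2 fold change, and the median was -0.12. Flt3 and Clec9a were at 0 in 8-week replicate 3, the library with the highest of these sums. The fibroblast, T and NK cell and B cell sums overlapped. The 5 sort antigen genes (Ptprc, Cd14, H2-Aa, H2-Ab1 and H2-Eb1) summed to 332223 to 407250 at 8 weeks and 203387 to 310598 at 11 weeks, a sum that the class II genes carry. H2-Ab1 was lower at 11 weeks (limma adjusted p = 0.0127). Cd14 went the other way, from 19463 to 23110 at 8 weeks to 30445 to 38151 at 11 weeks, higher without overlap (log2 fold change 0.63, limma adjusted p = 0.198, DESeq2 0.0314). In a principal component analysis, 8-week replicates 2 and 3 lay at opposite ends of the second component (22.1% of the variance). The part of these differences in the results below was not tested. In bulk samples, fewer cells that carry a transcript and less of it per cell cannot be told apart.

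Arg1 was the leading member in these macrophages and the one that separated the ages most clearly, Arg2 ran the other way, and Nos2 was close to absent. For Arg1 the mean was 1223 ± 450 normalized counts in 8-week libraries and 3462 ± 1449 in 11-week libraries (SD, 3 libraries each). For Arg2 it was 363 ± 200 and 163 ± 28.7 (SD, 3 libraries each). Nos2 had 0 to 3 reads per library at 8 weeks and 0 to 25 at 11 weeks. The other 7 genes overlapped between the ages. None of the 10 passed an adjusted p of 0.05 in limma over all 21675 genes tested (0.0507% of all genes did), and 1 of them, Arg1, had an unadjusted p under 0.05 (8.03% of all genes did, 4.76% higher and 3.27% lower at 11 weeks). No member passed edgeR's quasi-likelihood test on the recovered reads (0.0646% of all genes did) or limma-voom (0.125%). DESeq2 on the same reads passed 1 member, Arg1 (2.66% of all genes with an adjusted p passed, 1.68% higher and 0.979% lower). The authors' deposited table also holds an adjusted p under 0.05 for 1 member, Arg1, against 1.91% of its genes (1.13% higher).

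**Figure D1:**
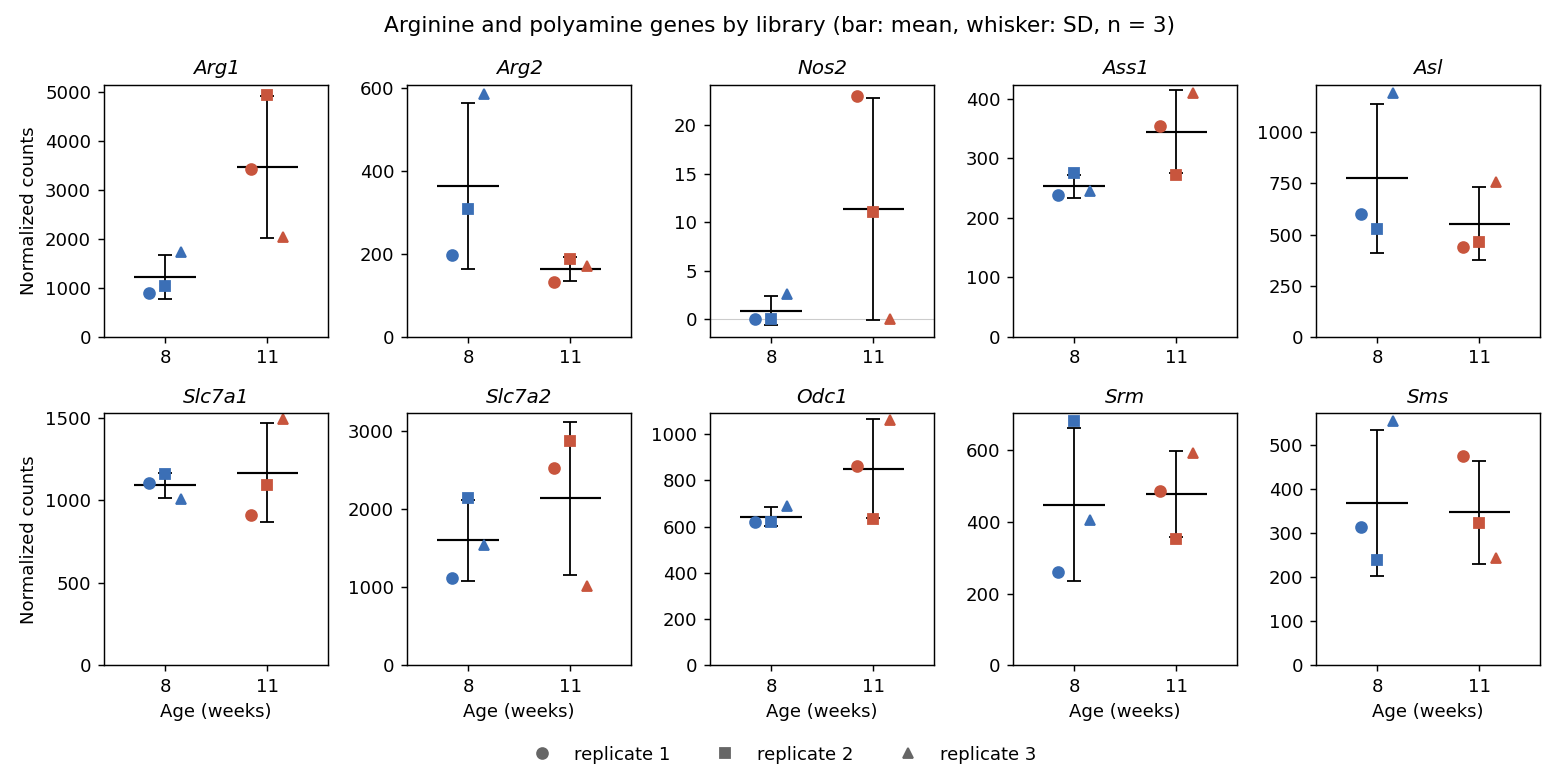
Normalized counts (y axis) of the 10 genes in each library at 8 and 11 weeks (x axis). Points are libraries, horizontal bars the mean and whiskers the SD of 3 libraries. Arg1 lies higher and Arg2 lower in all 3 libraries of 11 weeks than in any of 8 weeks, and the other 8 genes overlap.

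The 2 arginases catalyse the same reaction, Arg1 in the cytosol and Arg2 in mitochondria. Arg1 (ENSMUSG00000019987) is a protein-coding gene at positions 24915208 to 24927470 of chromosome 10, minus strand, in GRCm38, the build named in the submitters' processing notes. At 8 weeks it was at 900.6, 1032.1 and 1737.2 normalized counts in replicates 1 to 3, and at 11 weeks at 3416.8, 4932.6 and 2035.7. The lowest library of 11 weeks, replicate 3, lay above the highest of 8 weeks, also a replicate 3, by a narrow margin. The log2 fold change of 11 over 8 weeks, on the scale of log2(normalized count + 1), was 1.47 ± 0.34 (SE, n = 3 per age; limma adjusted p = 0.166), with a 95% interval, not adjusted for the other genes, of 0.75 to 2.19. edgeR gave 1.49 with an adjusted p of 0.149, and DESeq2 1.5 with an adjusted p of 0.00906. The authors' deposited table gives a log2 fold change of 1.229 with an adjusted p of 0.012. Leaving out any 1 library kept the direction, with limma log2 fold changes of 1.17 to 1.81 and adjusted p of 0.13 to 0.423. The summed neutrophil markers also set the ages apart. At 11 weeks they ranked the libraries as Arg1 did, with replicate 2 highest and replicate 3 lowest. The last place of replicate 3 in that sum rests on Mmp8, at 785.2, 840.7 and 12.7 normalized counts in replicates 1 to 3. Among those libraries the sum varied only 1.13-fold, against 2.42-fold for Arg1. Csf3r, the most abundant of these markers, overlapped between the ages, at 1358.9 to 3183.6 normalized counts at 8 weeks and 2384.2 to 2603.9 at 11 weeks. S100a8, S100a9, Cxcr2 and Retnlg were higher without overlap at 11 weeks. Cxcr2 was at 341.1, 900.2 and 432.3 in replicates 1 to 3 at 11 weeks and S100a9 at 1191.6, 1522.2 and 1051.4. Both were highest in replicate 2 like Arg1. Retnlg (31.3, 15.1 and 77.9) and Ltf (1036.3, 163.3 and 1525.4) were instead lowest in replicate 2 and highest in replicate 3. At 8 weeks the orders differed: replicate 3 was highest in Arg1 and lowest in the summed neutrophil markers. Whether neutrophil RNA has a part in the Arg1 values was not tested.

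Arg2 (ENSMUSG00000021125) lies at positions 79130777 to 79156301 of chromosome 12, plus strand. It was at 196.2, 307.6 and 585.1 normalized counts in replicates 1 to 3 at 8 weeks and at 131.5, 187.5 and 170.4 at 11 weeks. The 2 ages came close to touching, at 187.5 and 196.2, and the 8-week libraries spread 2.98-fold among themselves, against 1.43-fold at 11 weeks. Its log2 fold change was -1.02 ± 0.56 (SE, n = 3 per age; limma adjusted p = 0.689), with an unadjusted 95% interval of -2.21 to 0.17. Without 8-week replicate 3, the highest library, it was -0.60 (limma adjusted p = 0.886). Arg2 overlaps Vti1b, a gene on the opposite strand at a mean of 1110 normalized counts. No source says that counting used strand, and without it reads from the overlap cannot be told apart. Across all genes tested, values were higher without overlap at 11 weeks in 6.81% and lower without overlap in 5.12%; among the 10 members it was 1 in each direction.

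The arginases are paralogs, and their coding sequences show how far a read can tell them apart. Between the coding sequences (969 bases of Arg1, 1062 of Arg2, from the longest protein-coding GENCODE M21 transcripts) 64.93% of 958 aligned bases were identical, and the longest run shared without a difference was 12 bases. The stretch that holds this run is shown 5′ to 3′, sense strand, at coding positions 498 to 559 of Arg1 and 555 to 616 of Arg2, with the 18 bases that differ in capitals:
Arg1: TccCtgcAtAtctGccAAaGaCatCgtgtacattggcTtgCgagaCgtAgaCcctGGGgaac
Arg2: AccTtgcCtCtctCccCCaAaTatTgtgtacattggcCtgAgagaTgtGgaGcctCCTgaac
The run of lower-case letters in the middle is thus the longest coding stretch in which a read would not tell the 2 genes apart. The longest such runs between Slc7a1 and Slc7a2 and between Srm and Sms were 23 and 11 bases.

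Set against each other within a library, which removes the library's scaling, the arginases gave a higher ratio of Arg1 to Arg2 in every library of 11 weeks than in any of 8 weeks. There were 4.59, 3.36 and 2.97 Arg1 reads per Arg2 read in replicates 1 to 3 at 8 weeks, with exact 95% binomial intervals of 3.96 to 5.34, 2.89 to 3.92 and 2.72 to 3.24. At 11 weeks there were 26, 26.3 and 11.9, with intervals of 22 to 30.9, 22.7 to 30.6 and 10.3 to 13.9. These intervals cover counting error only, since amplified reads are not independent molecules. The lowest 11-week value, in replicate 3, lay well above the highest of 8 weeks. The mean log2 ratio, with 1 added to both normalized counts, went from 1.83 ± 0.32 in 8-week libraries to 4.32 ± 0.65 in 11-week libraries (SD, 3 libraries each), a difference of 2.49. A two-sided exact permutation test gave p = 0.1, the smallest that 3 against 3 samples can give. This ratio was chosen after the values of both genes were seen, so its p supports nothing further. Leaving out any 1 library left the difference between 2.29 and 2.87.

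Nos2 (ENSMUSG00000020826), at positions 78920787 to 78960254 of chromosome 11, plus strand, encodes the inducible synthase that macrophages switch on in response to interferon gamma and bacterial products. It was at 0, 0 and 2.6 normalized counts in replicates 1 to 3 at 8 weeks, from 0, 0 and 3 reads. At 11 weeks it was at 23, 11.1 and 0, from 25, 11 and 0 reads. So 3 of 6 libraries held no read of it, 1 of them at 11 weeks, and the ages overlapped. A count of 0 allows up to 3 reads, or 0.0619, 0.0774 and 0.0471 RPM (reads scaled to the recovered library total) in 8-week replicates 1 and 2 and 11-week replicate 3. The highest library, 11-week replicate 1, had 0.401 RPM, with an exact 95% binomial interval of 0.26 to 0.592. Nos2 met the filter on low values, which asks that the mean of at least 1 age reach 1 normalized count, only through the 11-week libraries. Its log2 fold change of 2.11 ± 1.43 (SE, n = 3 per age; limma adjusted p = 0.767) had an unadjusted 95% interval of -0.92 to 5.14. The size of that value varied with the fit: it was 1.18 without 11-week replicate 1, 3.48 without 11-week replicate 3, 1.19 with 5 added in place of 1, 3.5 in edgeR and 3.69 in DESeq2. The authors' deposited table gives 0.191. Its values are smaller in size for Arg1 and Arg2 as well, 1.229 and -0.836 against 1.5 and -1.155 in DESeq2 here. The reason was not tested. The 11-week libraries of near-equal depth, replicates 1 and 3, held 25 and 0 reads. The other nitric oxide synthases were also near 0: Nos1 reached 7.1 normalized counts in 8-week replicate 1 and at most 1.4 elsewhere, and Nos3 was at 2.7 there and at 0 in the other 5 libraries.

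Arg1 exceeded Nos2 in every library. Where Nos2 had reads, there were 678 Arg1 reads per Nos2 read in 8-week replicate 3 (exact 95% binomial interval 232 to 3290), 149 in 11-week replicate 1 (interval 101 to 230) and 445 in 11-week replicate 2 (interval 248 to 892). Where Nos2 had none, Arg1 was at least 337-fold and 248-fold higher in 8-week replicates 1 and 2 and at least 749-fold higher in 11-week replicate 3, against a floor of 3 Nos2 reads per library. Nos2 has the longer transcript, 4192 bases against 1477 for Arg1, and per base the ratio in 11-week replicate 1, the lowest, became 422, with an interval of 285 to 653. These ratios overlapped between the ages. The mean of log2((Arg1 + 1)/(Nos2 + 1)) was 9.58 ± 0.58 in 8-week libraries and 8.94 ± 1.93 in 11-week libraries (SD, 3 libraries each), a difference of -0.64 (two-sided exact permutation p = 0.6, smallest possible 0.1). Without 11-week replicate 1, the library richest in Nos2, the difference turned to 0.25, and with 5 added in place of 1 to 0.28. The higher Arg1 at 11 weeks was thus accompanied by more Nos2 reads in replicates 1 and 2 and by none in replicate 3, where Arg1 was lowest.

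**Figure D2:**
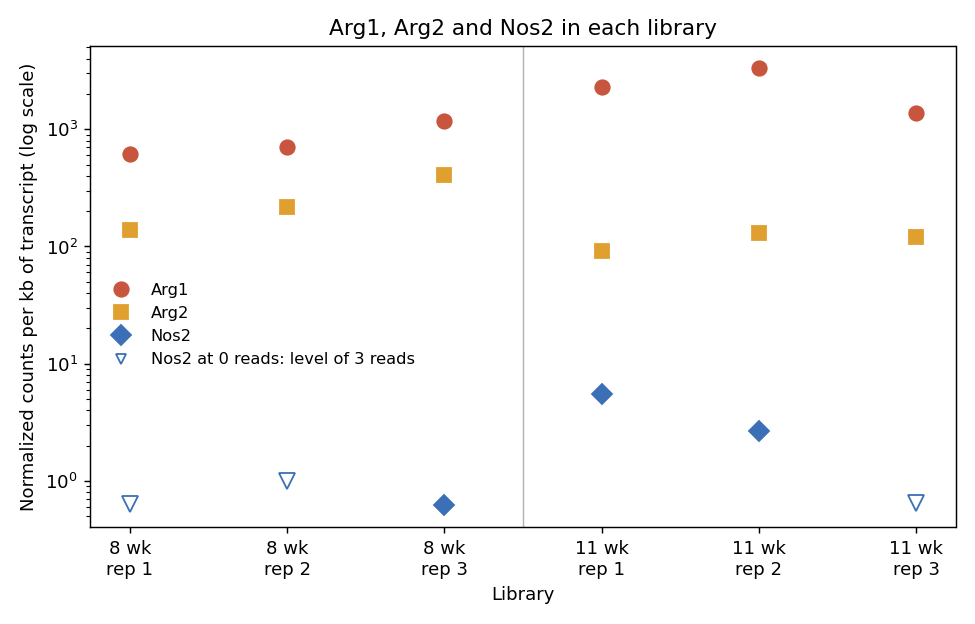
Normalized counts per kilobase of transcript (y axis, log scale) of Arg1, Arg2 and Nos2 in the 6 libraries (x axis). Open triangles mark the level of 3 reads in the 3 libraries where Nos2 had no read. Arg1 is the highest and Nos2 the lowest in every library, and the gap between Arg1 and Arg2 is wider at 11 weeks.

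Ass1 and Asl, which act one after the other to turn citrulline and aspartate back into arginine, were both expressed. Ass1 (ENSMUSG00000076441), at positions 31470207 to 31520672 of chromosome 2, plus strand, was at 238.1, 274.3 and 245.1 normalized counts in replicates 1 to 3 at 8 weeks and at 354, 271.2 and 408.8 at 11 weeks. Only 11-week replicate 2 fell within the 8-week range, just under its top. The log2 fold change was 0.43 ± 0.47 (SE, n = 3 per age; limma adjusted p = 0.829). Asl (ENSMUSG00000025533), at positions 130011258 to 130025132 of chromosome 5, minus strand, was at 602.7, 529.2 and 1191.5 at 8 weeks and at 439.5, 461.7 and 757.7 at 11 weeks. Replicate 3 was the highest library at each age, and replicates 1 and 2 of 11 weeks lay below all of 8 weeks. Its log2 fold change was -0.43 ± 0.41 (SE, n = 3 per age; limma adjusted p = 0.82).

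The arginine importers overlapped between the ages. Slc7a1 (ENSMUSG00000041313), which encodes CAT-1, the widely expressed carrier, lies at positions 148327410 to 148399904 of chromosome 5, minus strand. It was at 1104.7, 1159.6 and 1005.3 normalized counts at 8 weeks and at 909.4, 1094.8 and 1494.6 at 11 weeks, and the 11-week values spanned the whole 8-week range. Its log2 fold change was 0.07, with an unadjusted 95% interval of -0.58 to 0.72 (limma adjusted p = 0.96). Scaling to library totals gave -0.019. Slc7a2 (ENSMUSG00000031596), which encodes CAT-2, the carrier induced in activated macrophages, lies at positions 40862396 to 40922308 of chromosome 8, plus strand. It was at 1118.1, 2141.8 and 1536.5 at 8 weeks and at 2523.1, 2866 and 1017.8 at 11 weeks. Replicates 1 and 2 of 11 weeks were above all other libraries and replicate 3 below all of them. Its log2 fold change was 0.33 ± 0.37 (SE, n = 3 per age; limma adjusted p = 0.831), 0.80 without 11-week replicate 3 (adjusted p = 0.614) and 0.05 without 11-week replicate 2. The lincRNA gene Gm26584 overlaps Slc7a2 on the opposite strand, at a mean of 118 normalized counts.

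Along the polyamine route, Odc1, the rate-limiting decarboxylase of ornithine, was steady at 8 weeks and more spread at 11. It (ENSMUSG00000011179) lies at positions 17544873 to 17551502 of chromosome 12, plus strand, and was at 621.5, 619.3 and 691 normalized counts at 8 weeks and at 860.6, 632.1 and 1062.2 at 11 weeks. Replicates 1 and 3 of 11 weeks were above all of 8 weeks, and replicate 2 was within their range. The log2 fold change was 0.37 ± 0.35 (SE, n = 3 per age; limma adjusted p = 0.817). Srm, spermidine synthase (ENSMUSG00000006442, positions 148591503 to 148594993 of chromosome 4, plus strand), was at 260.4, 680.2 and 404.8 at 8 weeks and at 487.3, 351.8 and 592.8 at 11 weeks. The 8-week range held all 3 of the 11-week values. The log2 fold change was 0.17 ± 0.46 (SE, n = 3 per age; limma adjusted p = 0.932), and it became -0.17 without 8-week replicate 1. Sms, spermine synthase (ENSMUSG00000071708, positions 157443855 to 157492287 of chromosome X, minus strand), was at 313, 238.3 and 554.3 at 8 weeks and at 474.5, 323.6 and 244.7 at 11 weeks, again inside the 8-week range. The log2 fold change was -0.05, with an unadjusted 95% interval of -1.09 to 0.996 (limma adjusted p = 0.984), and it turned to 0.29 without 8-week replicate 3. A processed pseudogene of Sms, Gm14680, had a mean of 0.3 normalized counts over the 6 libraries.

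**Figure D3:**
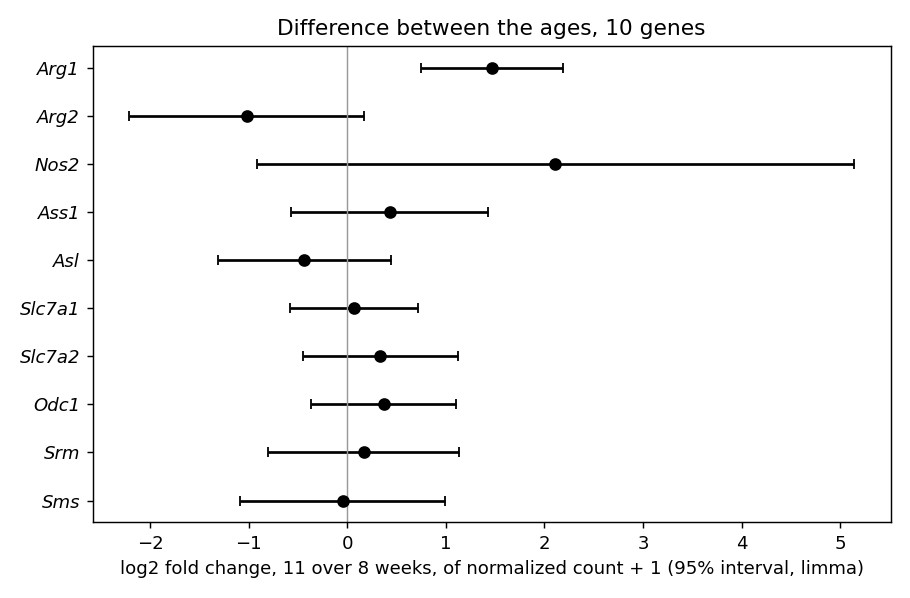
Log2 fold change of 11 over 8 weeks (x axis, on log2 of normalized count + 1) of the 10 genes, with unadjusted 95% intervals from limma. The interval of Arg1, 0.75 to 2.19, lies above 0, and the other 9 intervals hold 0.

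Levels of different genes can be compared only per length, here as normalized counts per kilobase of the longest protein-coding transcript. At 8 weeks Arg1 led, at 828 ± 305 per kilobase (SD, n = 3), and its libraries (610 to 1176) did not overlap those of any other member. Srm (335 ± 159), Asl (321 ± 150), Odc1 (292 ± 18.5), Arg2 (254 ± 140) and Slc7a2 (202 ± 65.1) followed, each overlapping its neighbour in the order. Slc7a1 (152 ± 10.9), Ass1 (149 ± 11.3) and Sms (99.2 ± 44.4) came next, again overlapping in turn, and, far below, Nos2 (0.207 ± 0.358). At 11 weeks Arg1 led again, at 2344 ± 981 per kilobase (SD, n = 3), followed by Odc1 (386 ± 97.5), Srm (357 ± 90.3), Slc7a2 (270 ± 124), Asl (229 ± 73.6), Ass1 (203 ± 40.9), Slc7a1 (163 ± 41.7), Arg2 (114 ± 20.1), Sms (93.5 ± 31.4) and Nos2 (2.71 ± 2.74). Apart from Arg1 and Nos2, each again overlapped its neighbour. Arg2 was the fifth at 8 weeks and the eighth at 11. With the merged exons of all transcripts as the length, Arg1 stayed first and Sms and Nos2 last at each age by their means. The order between them changed, Asl moving from the third to the sixth at 8 weeks. On that length the lowest 8-week library of Arg1 fell within the ranges of Srm and Arg2.

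The members did not vary together between libraries of one age. At 11 weeks Arg1 and Slc7a2 were both highest in replicate 2 and lowest in replicate 3. Odc1, Ass1 and Srm were highest in replicate 3 and lowest in replicate 2, and Slc7a1 and Asl were also highest in replicate 3. The summed epithelial markers were lowest in replicate 2 at 11 weeks (23817 normalized counts, against 45910 in replicate 1 and 36869 in replicate 3), the library where Odc1, Ass1 and Srm were lowest. Fibroblast markers ran in the order of those 3 genes at 11 weeks: 1395.1 in replicate 2, 2355.8 in replicate 1 and 3306.3 in replicate 3. Their 8-week order, 1060.8 in replicate 3, 1173.5 in replicate 1 and 1656.9 in replicate 2, was shared by none of the 3 genes. At 8 weeks the summed epithelial markers went from 7694.8 in replicate 1 to 9419.3 in replicate 2 and 11246 in replicate 3. Arg1 and Arg2 shared that order, and Odc1, Ass1 and Srm did not. Of the markers, Csn3, which carries most of the sum, Csn2 and Krt18 also ran in that order. Others did not, such as Epcam (321.9, 191.2 and 303.2 in replicates 1 to 3), Cdh1, Krt8 and Krt19. The part of these other cells in the members' values was not tested.

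**Figure D4:**
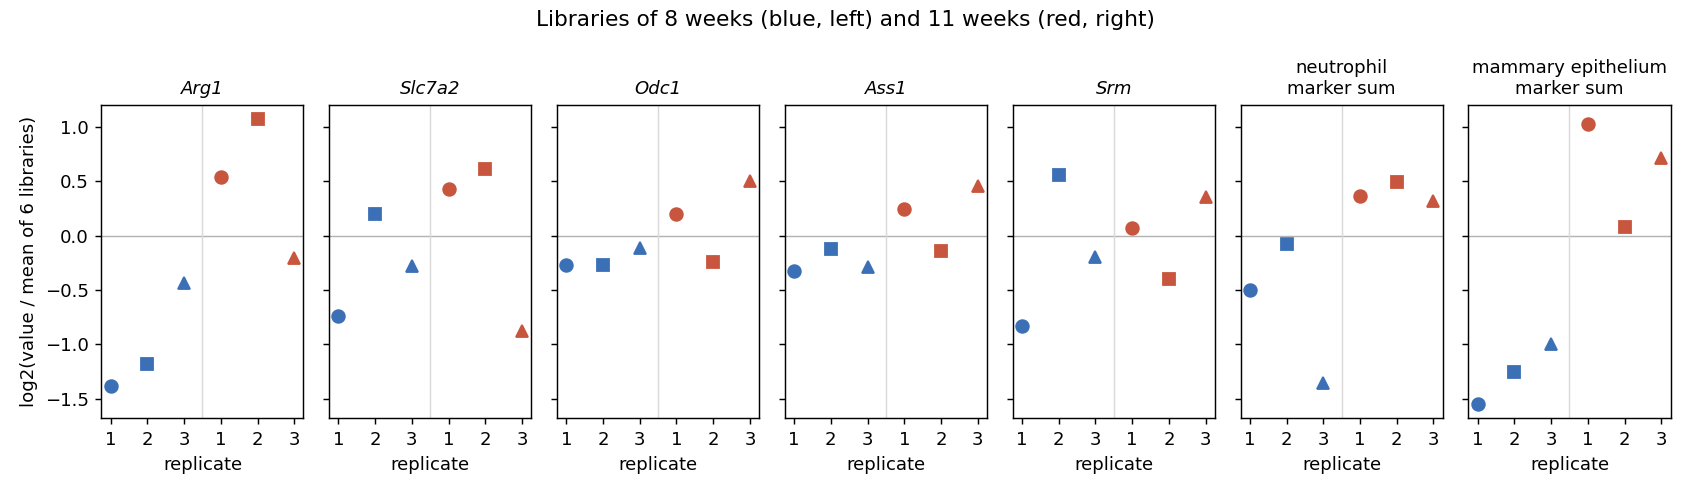
Level of 5 genes and of the summed neutrophil and epithelial markers in each library, as log2 of the value over its mean in the 6 libraries (y axis), by replicate (x axis), 8 weeks in blue and 11 weeks in red. At 11 weeks Arg1 and Slc7a2 peak in replicate 2, where Odc1, Ass1, Srm and the epithelial markers are lowest.

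The genes that shared the library pattern of Arg1 most closely, by Pearson's r of log2(normalized count + 1) over the 6 libraries among 9905 named genes averaging 100 normalized counts or more, were Ndufs7, Trmt61a, Gtf3a, Sfmbt2 and Arhgap35, with r of 0.987 to 0.977. For Nos2 they were Vac14, Ace, Ctr9, Spire1 and Slc25a30, with r of 0.989 to 0.973, where 3 of the 6 Nos2 values are 0. With so many candidates and 6 points that share age, depth and scaling, such values describe these libraries only.

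Around these 10 genes, 95 others of the same routes were listed, and 88 of them passed the filter. None passed an adjusted p of 0.05 in limma or edgeR (0.0507% and 0.0646% of all genes did). An unadjusted p under 0.05 was found for 7 that were higher and 4 that were lower at 11 weeks, beside 4.76% and 3.27% of all genes. DESeq2 passed 4, Lif, Il4ra and Il1b, which were higher, and Slc38a9, which was lower, beside 1.68% and 0.979% of all genes. The median log2 fold change was 0.06, beside 0.05 over all 21675 genes, and that of the 10 members was 0.25. Values were higher without overlap at 11 weeks in 11 of the 88 and lower without overlap in 5, beside 6.81% and 5.12% of all genes.

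In the list of polyamine enzymes and the antizyme system, 0 of 12 passed in limma, 3 had a positive log2 fold change and the median was -0.19. Smox, spermine oxidase, which turns spermine back into spermidine, was at 1172.5, 1087.5 and 774.7 normalized counts at 8 weeks and at 1471.2, 1758.1 and 1828.1 at 11 weeks. All 3 of its 11-week libraries lay above those of 8 weeks (log2 fold change 0.75 ± 0.29 SE, n = 3 per age; limma adjusted p = 0.51). Azin1, the antizyme inhibitor that protects ornithine decarboxylase, was at 5341.8, 4854.4 and 4373.8 at 8 weeks and at 4256.3, 3848.9 and 3658.9 at 11 weeks, lower without overlap (limma adjusted p = 0.764). Mtap, which salvages the methylthioadenosine that polyamine synthesis leaves, had a log2 fold change of -0.90 (limma adjusted p = 0.7). Amd2 was at 0 in all 8-week libraries and at 6.4, 1 and 5.4 at 11 weeks, but it is a near-identical copy of Amd1, so its reads cannot be assigned with certainty. Sat1, which acetylates polyamines for export and breakdown, was at 11209 ± 756 normalized counts per kilobase in 8-week libraries and 9600 ± 1697 in 11-week libraries (SD, 3 libraries each). On that scale the highest library of Odc1, Srm or Sms was at 508 (Srm, 8-week replicate 2).

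Polyamine transport and hypusine genes, where hypusine is the modified residue that spermidine gives to eIF5A, had a median of 0.00 with 0 of 9 tested passing in limma. Atp13a3, a polyamine transporter of the P5B type, was at 8920.8, 7044.6 and 5242.4 normalized counts at 8 weeks and at 5224.5, 4623.1 and 4684.9 at 11 weeks, lower without overlap by a narrow margin (log2 fold change -0.51, limma adjusted p = 0.583). Cav1, caveolin 1, was at 114.1, 79 and 261.4 at 8 weeks and at 293.3, 583.7 and 317.2 at 11 weeks, higher without overlap (log2 fold change 1.5, limma adjusted p = 0.531). Dhps, deoxyhypusine synthase, had a log2 fold change of 0.60 (limma adjusted p = 0.82) and the eIF5A isoform gene Eif5a2 one of -0.37 (adjusted p = 0.853).

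The list of urea cycle, ornithine, proline and creatine genes showed which exits from ornithine and arginine were transcribed. Cps1, Nags and Agmat were at 0 in all libraries, and Otc, the urea cycle enzyme that makes citrulline from ornithine, was at 16.1 normalized counts in 11-week replicate 2 and at most 0.9 elsewhere. Oat, which turns ornithine towards proline and glutamate, was at 920 ± 175 normalized counts per kilobase at 8 weeks and 874 ± 28 at 11 weeks. Gatm, which uses arginine to make the creatine precursor, was at 7973 ± 733 and 7990 ± 2136 on the same scale (SD, 3 libraries each), above Arg1 at each age. None of the 11 tested passed in limma, and none had an unadjusted p under 0.05. The 4 with the smallest p were Prodh, Pycr1, Pycrl and Otc, with limma adjusted p of 0.69 to 0.833.

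Among arginine transport and methylarginine genes 0 of 11 tested passed in limma, with 9 positive and a median of 0.13. Slc38a9, the lysosomal arginine sensor that signals to mTORC1, had the smallest p. It was at 1648.6, 1871.6 and 1848.3 normalized counts at 8 weeks and at 1050, 1025.2 and 771.3 at 11 weeks. All 3 of the 11-week libraries lay far below those of 8 weeks (log2 fold change -0.93 ± 0.28 SE, n = 3 per age; limma adjusted p = 0.348, edgeR 0.31, DESeq2 0.00825). Slc7a7, the light chain of a carrier that exports cationic amino acids, was at 3774 ± 319 and 5278 ± 1580 (SD, n = 3 per age; limma adjusted p = 0.7), and Slc7a5 had a log2 fold change of 1.01 (limma adjusted p = 0.738). Ddah1, which breaks down methylated arginines that inhibit nitric oxide synthases, was at 124.8, 1.4 and 117 at 8 weeks and at 374.2, 182.5 and 179.5 at 11 weeks. Its log2 fold change of 2.81 (limma adjusted p = 0.591) includes the value of 1.4 in 8-week replicate 2, far below the other libraries. For the synthase cofactor tetrahydrobiopterin and other partners, 0 of 12 tested passed in limma. Gch1, which opens tetrahydrobiopterin synthesis, was at 1337 ± 184 and 1947 ± 1003 (SD, n = 3 per age; limma adjusted p = 0.803), and Calm3 and Pts had log2 fold changes of 0.35 and -0.58.

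The inducers of Arg1 and of Nos2 held the smallest p-values among the listed genes. Lif, a cytokine of the interleukin 6 family, was at 269.3, 123.3 and 322 normalized counts at 8 weeks and at 1816, 693.6 and 1245.3 at 11 weeks (log2 fold change 2.39 ± 0.48 SE, n = 3 per age; limma adjusted p = 0.109, edgeR 0.0812, DESeq2 0.00018). Il4ra, the receptor chain through which interleukins 4 and 13 induce Arg1, was at 10303.7, 9656.1 and 11277.5 at 8 weeks and at 16944.2, 16760.4 and 16076.8 at 11 weeks. Its libraries differed little within an age, and the ages stood well apart (log2 fold change 0.67 ± 0.16 SE, n = 3 per age; limma adjusted p = 0.198, edgeR 0.294, DESeq2 0.00344). Of the 15 Arg1 inducers 9 were positive, with a median of 0.03. Stat6, which carries the Il4ra signal, had a log2 fold change of 0.06, and those of Il10ra and Pparg were -0.38 and 0.71 (limma adjusted p = 0.782 and 0.795).

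Of the 14 Nos2 inducers 10 were positive, with a median of 0.11, and none passed in limma. Ifngr1, the ligand-binding chain of the interferon gamma receptor, was at 6691.7, 9642.2 and 6781.5 normalized counts at 8 weeks and at 5718.3, 5556.6 and 3513 at 11 weeks (log2 fold change -0.66, limma adjusted p = 0.46). Irf1, a transcription factor that Nos2 induction needs, was at 3236.6, 3869.4 and 3048.3 at 8 weeks and at 2261, 1682.5 and 2702.7 at 11 weeks (log2 fold change -0.63, limma adjusted p = 0.533). Both were lower without overlap. Il1b, an inflammatory cytokine, was higher without overlap (log2 fold change 1.09, limma adjusted p = 0.132, DESeq2 0.031), and so was Ifnb1, at 8, 0 and 0 at 8 weeks and 36.8, 58.5 and 10 at 11 weeks (limma adjusted p = 0.531). In the list of growth regulators of polyamine synthesis, Myc, which drives Odc1 transcription, was at 595.6, 1088.9 and 1089.8 at 8 weeks. At 11 weeks it was at 1587, 1221.8 and 696.1, with overlap (log2 fold change 0.31, limma adjusted p = 0.835). Max, Mxd1 and Tfap4 had log2 fold changes of 0.18, -0.01 and 1.63, and Mycn was at 0 in all libraries.

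**Figure D5:**
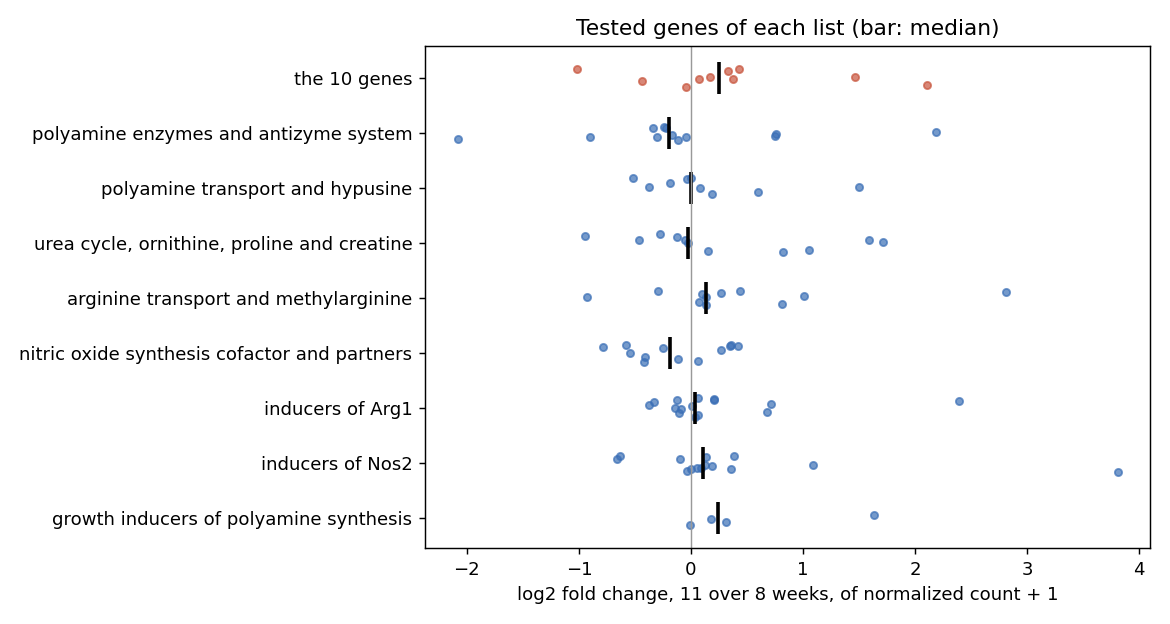
Log2 fold change of 11 over 8 weeks (x axis, on log2 of normalized count + 1) of the tested genes in the 10-gene set (red) and in each of the 8 lists (blue), 1 point per gene, with the median as a bar. The medians of the lists lie between -0.19 and 0.24, and single genes such as Lif at 2.39 stand away from them.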

How the data were processed

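Libraries of 6 sorted macrophage samples were made with an amplification kit for small RNA amounts (below 100 ng) followed by Nextera, per the labels' protocols. Named in the submitters' processing notes are GRCm38, STAR 2.4 and DESeq2 1.6; for the counting tool, the sources used here name none. The deposited signal values are gene counts over 1 size factor per library. For 11 against 8 weeks the authors also deposited p-values, a fold ratio on the linear scale and its log2. Whole reads were recovered for at least 99.793% of nonzero values per library, within 0.05 normalized counts, and no 2 libraries were identical. Since the values were not whole counts, the main test was limma (trend, robust) on log2(normalized count + 1), for genes whose mean reached 1 at one age or both, with Benjamini-Hochberg adjustment over all genes. edgeR quasi-likelihood, DESeq2 and limma-voom ran on recovered reads. Other scalings, filters, pseudocounts, a replicate block and leaving out each library were tried. The steps were tested on simulated data.

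Genes named were the 10 members, and from each pathway list those that passed and up to 4 with the smallest p, of which 1 is not reported here; Oat, Gatm, Sat1, Nos1, Nos3, Stat6 and any other list gene outside that rule were chosen after their values were seen. The members and lists were chosen with earlier results of these data known. Of 181 list entries, 180 matched the table by symbol and 1 by gene ID. Transcript lengths and sequences came from GENCODE M21 (GRCm38). Statistics used scipy 1.17.1, numpy 2.4.6 and pandas 2.3.3 under Python 3.11.15, and DESeq2 1.42.0, edgeR 4.0.16 and limma 3.58.1 under R 4.3.3; plots used matplotlib 3.10.9.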

Additional observations from a re-analysis of the deposited data

How the results depend on the processing

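Of the 17 alternatives, 16 left the count of members called at 0, and DESeq2 called 1, Arg1. The count over all genes was 11. It was 4 with scaling to library totals (all 4 higher, against 8 of 11), 434 with DESeq2, 27 with limma-voom, 45 with the replicate block, and 3 to 16 when 1 library was left out (3 without 8-week replicate 1, 4 without 11-week replicate 1). Arg1, Arg2, Nos2, Ass1, Asl, Slc7a2 and Odc1 kept their direction under all 17. Slc7a1 turned to -0.019 with scaling to library totals and to -0.12 without 11-week replicate 3, Sms to 0.0040 with upper-quartile scaling, 0.29 without 8-week replicate 3 and 0.18 without 11-week replicate 3, and Srm to -0.17 without 8-week replicate 1 and -0.0050 without 11-week replicate 3 (leaving out 1 library gave -0.125 to 0.233 for Slc7a1, -0.314 to 0.294 for Sms and -0.169 to 0.522 for Srm); the cause was not tested. The Arg1 to Nos2 log2 ratio differed by 0.28 with 5 added in place of 1, and by -1.67 to 0.25 when 1 library was left out, turning positive without 11-week replicate 1, where Nos2 had most reads. No label says that a number is shared by the same mouse, so the numbers were not taken as pairs. Same-numbered libraries of the 2 ages also did not deviate together (correlations of deviations of -0.03, 0.00 and -0.02). With the replicate block the ratio difference was -0.64, and Arg1 had a limma adjusted p of 0.0696. The log2 fold change of Nos2 was 1.19 to 3.69 over the other fits and 1.18 to 3.48 when 1 library was left out. A library with 0 Nos2 reads allows up to 3.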
